A study of Homo sapiens with 6 samples.

Results

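The enzymes that make, phosphorylate, methylate away and consume nicotinamide adenine dinucleotide (NAD) were followed at the mRNA level in U2OS cells, a human osteosarcoma line, after knockdown of NUDT5. The 10 genes were picked by symbol as enzymes of the pathway, at a time when earlier results of these data were known: NAMPT, NMRK1, QPRT, NADSYN1, NMNAT1, NMNAT3, NADK, NNMT, SIRT1 and SIRT6. All 10 were found among the 19977 gene symbols of the table, and 9 of them were among the 12236 genes whose mean over the libraries reached 1 TPM and which were tested. TPM corrects a gene's reads for transcript length and for the size of the library. U2OS cells with no further treatment were transfected either with a non-targeting control siRNA (siCtrl, 3 libraries) or with siRNA directed at NUDT5 (siNUDT5, 3 libraries), and RNA was taken 48 hours later. All 6 libraries come from 1 cell line, and the number of siRNA sequences used against NUDT5 is not known from the labels. The labels do not say whether the libraries of a group came from separate cultures, and p-values therefore measure the spread between libraries, which may be technical. The question put to the data was whether the mRNA of NAD enzymes differed once NUDT5, a hydrolase of ADP-ribose, was lowered.

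NAD carries electrons in metabolism and is also split by enzymes that use it as a substrate. Sirtuins remove acyl groups from proteins at the cost of NAD and release nicotinamide, and PARP enzymes release nicotinamide as they build ADP-ribose chains, whose breakdown yields the ADP-ribose that NUDT5 cleaves. Nicotinamide is returned to NAD through NAMPT and the NMNAT enzymes, whereas NNMT methylates it and takes it out of the cycle. NAD is also made from nicotinic acid, from tryptophan and from nicotinamide riboside, routes that run through NAPRT, QPRT and the NMRK kinases.

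NADSYN1 and NNMT mRNA rose and NMNAT1 mRNA fell after NUDT5 knockdown, each by less than 1.5-fold. The other 6 tested enzymes did not pass the test, and NMNAT3 was too low to be tested. The threshold was p under 0.05 after Benjamini-Hochberg adjustment over all tested genes, in a limma fit of log2(TPM + 1). These 3 of 9 members, 2 higher and 1 lower, stand beside 16.1% of all tested genes that passed, 10.9% higher and 5.2% lower. With median-ratio scaling the split over all genes was 1034 higher and 904 lower, in place of 1334 and 636, and NMNAT1 alone of the members passed, 0 higher and 1 lower. The median log2 change was 0.07 over the 9 members and 0.05 over all tested genes. The groups did not overlap in 4 of the 9 members, NADSYN1, NNMT, NMNAT1 and QPRT, and in 37.3% of all tested genes, so the latter count stood close to the background.

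The knockdown was present in each library labelled siNUDT5, where 5.74% of the control level of NUDT5 mRNA remained (exact two-sided permutation test of TPM, p = 0.1, the smallest that 3 against 3 libraries allow). Within the controls siCtrl 2 stood apart. It lay outside the values of siCtrl 1 and siCtrl 3 in 8 of the 9 tested members and in 89.8% of all tested genes. Among 3 like libraries each would also lie outside the others in most genes. The median absolute log2 difference was 0.107 between siCtrl 1 and siCtrl 3, and 0.296 and 0.227 between siCtrl 2 and these. The relative depth of siCtrl 2, read from the steps of low values, was 64.1% of that of siCtrl 1, whereas the other 4 libraries had 89.4% to 118%. Of 9 mesenchymal and bone markers 5 reached a mean of 1 TPM, VIM, SPARC, COL1A1, RUNX2 and ALPL. All 9 summed to 4064 to 4361 TPM in siCtrl and 4771 to 4874 TPM in siNUDT5, with no overlap. Most of that sum was VIM, with means of 3115 TPM in siCtrl and 3551 TPM in siNUDT5. ALPL rose (log2 change 0.49, limma adjusted p = 0.0472), and the other 4 had log2 changes of 0.15 to 0.44 that did not pass. COL1A2 was at 0.0422 to 0.393 TPM, SP7 was listed at 0, and BGLAP and IBSP were at 0 in at least 4 libraries and did not exceed 0.235 TPM. Of 9 measured markers of blood, endothelium, epithelium, liver, muscle and neurons 3 reached 1 TPM, and they summed to 14.5 to 23.2 TPM in siCtrl and 17.3 to 19.6 TPM in siNUDT5. Among them EPCAM fell from 9.89 ± 2.83 to 5.39 ± 0.30 TPM and SNAP25 rose from 5.44 ± 2.31 to 10.3 ± 0.920 TPM (SD, n = 3 each), CDH1 was at 1.82 to 2.44 TPM, CD3E was listed at 0, and the part of these markers and of the bone markers in the results below was not tested.

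**Figure D1:**
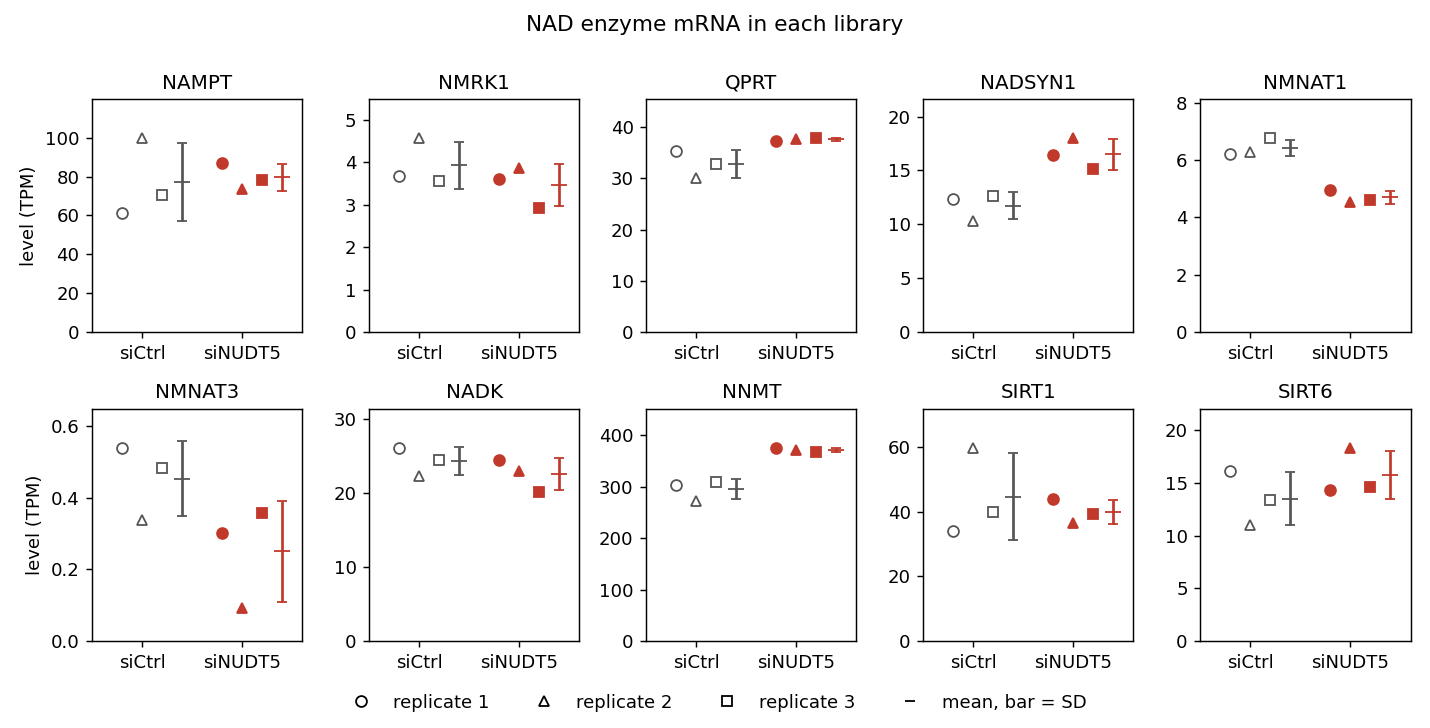
Level in TPM (y axis, linear, from 0) of each of the 10 NAD enzyme genes in siCtrl (open grey) and siNUDT5 (filled red) libraries, with the replicate number given by the symbol and the mean ± SD of 3 libraries beside the points. NADSYN1, NNMT and QPRT are higher and NMNAT1 is lower in every siNUDT5 library than in every siCtrl library. The open triangle, siCtrl 2, is the highest point for NAMPT, SIRT1 and NMRK1.

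The 10 mRNAs spanned a wide range of levels. In siCtrl the order was NNMT at 295 TPM, NAMPT at 77.2, SIRT1 at 44.5, QPRT at 32.8, NADK at 24.3, SIRT6 at 13.5, NADSYN1 at 11.7, NMNAT1 at 6.42, NMRK1 at 3.93 and NMNAT3 at 0.453 TPM (means, n = 3). NNMT stood at percentile 98.0 of all gene symbols by its mean and NMNAT3 at percentile 33.4. Neighbours in this order overlapped across control libraries for SIRT1 and QPRT and for SIRT6 and NADSYN1, and every other pair of neighbours was apart. In siNUDT5 the means of NADSYN1 and SIRT6 changed places, at 16.5 and 15.8 TPM, and their ranges still overlapped, as did those of SIRT1 and QPRT.

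NAMPT makes nicotinamide mononucleotide from nicotinamide and is the rate-limiting enzyme of the salvage route. Its mRNA measured 61.2, 99.8 and 70.7 TPM in the controls siCtrl 1 to 3, and siNUDT5 1 to 3 had 87.0, 73.6 and 78.2 TPM. All siNUDT5 libraries lay inside the control range, which siCtrl 2 widened. The means were 77.2 ± 20.1 and 79.6 ± 6.77 TPM (SD, n = 3 each), and the log2 change was 0.07 (95% interval -0.31 to 0.45, limma adjusted p = 0.817). Without siCtrl 2 the 3 siNUDT5 libraries were all above the 2 remaining controls, the log2 change was 0.27 and NAMPT passed the threshold (adjusted p = 0.0388). Without siCtrl 1 it was -0.08 (adjusted p = 0.739). NAMPT has a processed pseudogene close to it in sequence, and the labels do not say how reads shared between copies were treated.

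NMRK1 phosphorylates nicotinamide riboside, and QPRT forms nicotinic acid mononucleotide from quinolinic acid at the end of the tryptophan route. NMRK1 was at 3.67, 4.56 and 3.55 TPM in siCtrl and 3.60, 3.87 and 2.91 TPM in siNUDT5, with overlapping groups and a log2 change of -0.14 (95% interval -0.45 to 0.16, limma adjusted p = 0.519). QPRT was at 35.4, 30.1 and 32.8 TPM in siCtrl and at 37.3, 37.6 and 37.8 TPM in siNUDT5. Every siNUDT5 value of QPRT exceeded every control value, with means of 32.8 ± 2.65 and 37.6 ± 0.258 TPM. The log2 change of 0.19 had a 95% interval of -0.01 to 0.40 and did not pass (limma adjusted p = 0.184).

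The remaining entry enzyme, NAPRT, which starts the route from nicotinic acid and is listed under its older symbol NAPRT1, was at 4.38 ± 1.67 TPM in siCtrl and 4.08 ± 0.0686 TPM in siNUDT5 (SD, n = 3 each). Its lowest value, 2.48 TPM, was that of siCtrl 2. Of the summed TPM of the 4 entry enzymes, NAMPT held 64.6 ± 7.55% in siCtrl and 63.7 ± 2.11% in siNUDT5, QPRT 28.2 ± 5.86% and 30.2 ± 1.70%, and NAPRT and NMRK1 together the small rest. These shares overlapped between the groups for all 4 enzymes. NMRK2, the muscle-enriched riboside kinase, was listed at 0 in all 6 libraries.

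NADSYN1 carries out the last step of the routes from nicotinic acid and tryptophan, the amidation of nicotinic acid adenine dinucleotide to NAD. In siCtrl 1 to 3 its mRNA measured 12.3, 10.3 and 12.6 TPM, and in siNUDT5 1 to 3 it measured 16.4, 18.0 and 15.1 TPM. All 3 siNUDT5 libraries were above all controls. The mean of 3 libraries rose by a ratio of 1.41, from 11.7 ± 1.26 TPM to 16.5 ± 1.44 TPM (SD), and the log2 change was 0.46 (standard error 0.115, 95% interval 0.20 to 0.72, limma adjusted p = 0.0300). Low values of the table moved in whole-read steps, and the 6 values of NADSYN1 were in the ratio of 381, 204, 437, 454, 657 and 493 reads, each within 0.0136 of a whole number, the smallest whole numbers that give these ratios. The direction held in all 14 alternatives, but with groups that did not overlap only the rescaled fits could have turned it. The adjusted p was 0.0505 with median-ratio scaling, 0.0529 with quantile normalization and 0.0526 without a filter. It was 0.0723 without siCtrl 3 and 0.09998, 0.133 and 0.0725 without siNUDT5 1, 2 and 3.

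NMNAT1 and NMNAT3 join the mononucleotide to adenylate, NMNAT1 in the nucleus, where PARP enzymes consume NAD, and NMNAT3 in mitochondria. NMNAT1 measured 6.22, 6.28 and 6.76 TPM in the 3 controls, in order of their numbers, and 4.96, 4.54 and 4.60 TPM in siNUDT5 1 to 3. The groups did not overlap, and siCtrl 2 lay between the other controls, the only tested member for which it did. The mean of 3 libraries fell by a ratio of 0.732, from 6.42 ± 0.293 TPM to 4.70 ± 0.227 TPM (SD), and the log2 change was -0.38 (standard error 0.101, 95% interval -0.61 to -0.15, limma adjusted p = 0.0367). The values were in the ratio of 181, 117, 220, 129, 156 and 141 reads. The adjusted p was 0.0612 without a filter, 0.0550 and 0.1502 without siCtrl 1 and 3, and 0.0906, 0.146 and 0.134 without siNUDT5 1, 2 and 3, with log2 changes of -0.35 to -0.41 in those 5 fits.

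NMNAT3 stood at 0.540, 0.337 and 0.482 TPM in siCtrl and 0.302, 0.0914 and 0.358 TPM in siNUDT5. The groups overlapped, since siNUDT5 3 exceeded siCtrl 2. Its values were in the ratio of 10, 4, 10, 5, 2 and 7 reads, the smallest whole numbers that fit. These sum to 24 reads in siCtrl (exact Poisson 95% interval 15.4 to 35.7) and 14 in siNUDT5 (7.65 to 23.5), at a total depth in siNUDT5 of 1.13 times that in siCtrl. The intervals cover counting error only and hold if these smallest numbers are the reads themselves; the difference in reads was not tested. Without a filter NMNAT3 entered the limma fit, where its log2 change was -0.22 (adjusted p = 0.218).

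NMNAT2, the third isozyme and mainly a neuronal one, was at 1.29 ± 0.15 TPM in siCtrl and 1.42 ± 0.0913 TPM in siNUDT5 (SD, n = 3 each), with overlapping groups. The 3 isozymes together had 8.16 ± 0.379 TPM in siCtrl and 6.37 ± 0.358 TPM in siNUDT5. NMNAT1 made up 79.0%, 78.4% and 78.6% of it in siCtrl 1 to 3 and 73.3%, 74.9% and 73.3% in siNUDT5 1 to 3. The share of NMNAT1 was lower in every siNUDT5 library, and that of NMNAT2 was higher in every one, at 22.3 ± 1.29% against 15.8 ± 1.62%. Exact two-sided permutation tests gave p = 0.1 for the sum and for both shares, the smallest these libraries allow. These results are not independent, since the NMNAT1 values enter the sum and both shares, and the level of NMNAT2 itself overlapped between groups. The shares were chosen after seeing the data. Shares of sirtuins, entry enzymes and NAD kinases were compared too, without adjustment, and that of SIRT5 also had p = 0.1 by exact permutation (2.74% in siCtrl, 2.13% in siNUDT5). The share of NMNAT3 overlapped between groups (p = 0.5, exact permutation).

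**Figure D2:**
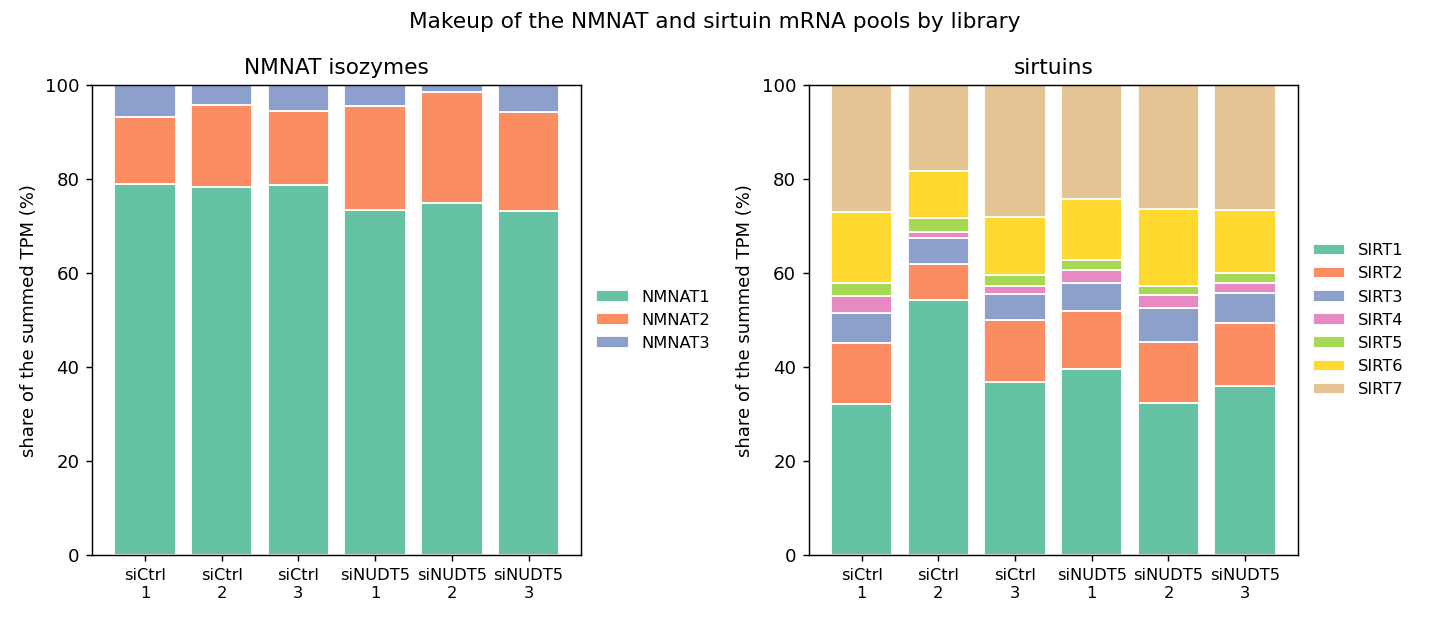
Share of the summed TPM (y axis, percent) held by each NMNAT isozyme (left) and each sirtuin (right) in each of the 6 libraries. NMNAT1 holds 78.4% to 79.0% in siCtrl and 73.3% to 74.9% in siNUDT5, and SIRT1 holds 54.4% of the sirtuin mRNA in siCtrl 2 against 32.1% to 39.6% in the other 5 libraries.

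NADK phosphorylates NAD to NADP in the cytosol, and NADK2 does so in mitochondria. NADK was at 26.2, 22.4 and 24.4 TPM in siCtrl and 24.5, 23.0 and 20.2 TPM in siNUDT5, with overlapping groups and a log2 change of -0.11 (95% interval -0.35 to 0.14, limma adjusted p = 0.552). NADK2 was at 23.8 ± 5.87 TPM in siCtrl and 22.6 ± 2.43 TPM in siNUDT5 (SD, n = 3 each). The kinases thus stood at near equal levels per length, NADK holding 51.0 ± 7.65% of their sum in siCtrl and 50.04 ± 3.48% in siNUDT5. NADK2 exceeded NADK in siCtrl 2, siNUDT5 1 and siNUDT5 3, and the share of NADK was lowest, at 42.3%, in siCtrl 2.

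NNMT transfers a methyl group from S-adenosylmethionine to nicotinamide, and it was the most abundant member. Control libraries 1 to 3 had 304, 272 and 308 TPM of its mRNA, and siNUDT5 1 to 3 had 376, 371 and 367 TPM. The siNUDT5 libraries lay close together and above all controls. The mean of 3 libraries rose by a ratio of 1.26, from 295 ± 19.6 TPM to 371 ± 4.49 TPM (SD), and the log2 change was 0.33 (standard error 0.0746, 95% interval 0.16 to 0.50, limma adjusted p = 0.0201). The direction held in all 14 alternatives, though here too only the rescaled fits could have turned it, since the groups did not overlap. The adjusted p was 0.0572 with median-ratio scaling, 0.0591 without siCtrl 3, and 0.0901, 0.0858 and 0.0854 without siNUDT5 1, 2 and 3.

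SIRT1 is the main nuclear deacetylase among sirtuins, and SIRT6 is a chromatin-bound sirtuin. SIRT1 measured 34.1, 59.7 and 39.8 TPM in controls 1 to 3, against 43.9, 36.6 and 39.3 TPM in siNUDT5 1 to 3. The groups overlapped fully, and siCtrl 2 was far above the other 5 libraries. The log2 change was -0.12 (95% interval -0.55 to 0.31, limma adjusted p = 0.716), and it was 0.11 without siCtrl 2 (adjusted p = 0.421). SIRT6 stood at 16.1, 11.03 and 13.3 TPM in siCtrl and 14.3, 18.3 and 14.6 TPM in siNUDT5. Its groups overlapped too, siCtrl 2 was the lowest library, and the log2 change of 0.22 (95% interval -0.13 to 0.56) did not pass (limma adjusted p = 0.375), falling to 0.09 without siCtrl 2.

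All 7 sirtuin genes were expressed above 1 TPM on average, and none passed the test. In siCtrl they followed the order SIRT1, SIRT7 at 26.3 ± 5.41, SIRT6, SIRT2 at 12.1 ± 3.27, SIRT3 at 6.25 ± 0.466, SIRT5 at 2.96 ± 0.328 and SIRT4 at 2.35 ± 1.19 TPM (SD, n = 3). SIRT7 is a nucleolar sirtuin, SIRT2 is mainly cytosolic, and SIRT3, SIRT4 and SIRT5 are mitochondrial. Their summed TPM was 108 ± 1.82 in siCtrl and 111 ± 1.95 in siNUDT5 (p = 0.2, exact permutation), so the pool differed little while its makeup in siCtrl 2 did. SIRT5 was the sirtuin whose groups did not overlap, at 2.58 to 3.20 TPM in siCtrl and 2.31 to 2.42 TPM in siNUDT5, with a log2 change of -0.23 (95% interval -0.49 to 0.03, limma adjusted p = 0.204).

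**Figure D3:**
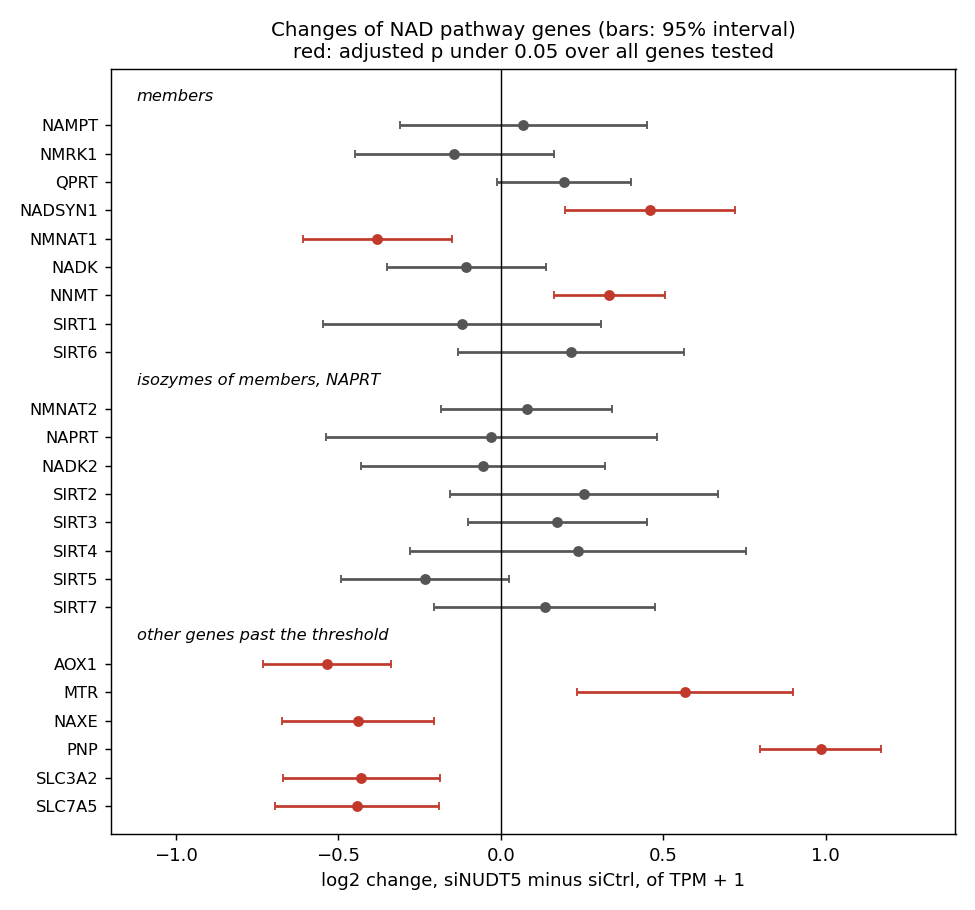
Log2 change of TPM + 1, siNUDT5 minus siCtrl (x axis), with 95% intervals from the limma fit, for the 9 tested members, the tested isozymes of members with NAPRT, and the 6 other pathway genes past the threshold. Red marks adjusted p under 0.05, and PNP has the largest change of the genes drawn, 0.99.

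Pairs of enzymes were compared within libraries as log2 ratios of TPM + 1. The enzymes of a pair shared a step or a substrate, except NADSYN1 and NAMPT, which belong to different routes to NAD. None of the 5 ratios separated the groups. The ratio of NNMT to NAMPT, which compete for nicotinamide, was 1.95 ± 0.449 in the controls and 2.21 ± 0.110 after knockdown (SD, n = 3 each, exact two-sided permutation p = 0.5). That difference of 0.26 was 0.01 without siCtrl 2, whose ratio of 1.44 was the lowest. The ratio of NADSYN1 to NAMPT differed by 0.39 (p = 0.4, exact permutation) and by 0.11 without siCtrl 2. That of SIRT6 to SIRT1 differed by 0.33 (p = 0.5, exact permutation) and by -0.02 without it, and that of NADK to NADK2 by -0.05 (p = 0.9, exact permutation) and by -0.30 without it. The sign of the NADK ratio turned without siCtrl 1 (0.10), siCtrl 3 (0.035) or siNUDT5 3 (0.040). The ratio of NMNAT1 to NMNAT3 differed by -0.16 (p = 0.2, exact permutation), and by 0.29 with a pseudocount of 0.1 in place of 1, so its direction rests on that choice. Adjusted over the 5 ratios, the lowest of these p-values was 0.625 by the exact permutation test.

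Of 66 further genes of NAD supply, NAD consumption, the methyl cycle around NNMT and sirtuin regulation, 50 were tested, 2 rose, 4 fell and 44 did not pass. That is 12.0% past the threshold against 16.1% of all tested genes, and their median log2 change was 0.03. Without siCtrl 2, 9 rose and 8 fell, where 31.1% of all tested genes passed. Without siCtrl 3 or any 1 siNUDT5 library, 1 rose and 1 fell in each fit, where 6.24% to 7.09% of all tested genes passed.

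Among 21 supply genes, 14 of them tested, PNP rose, SLC3A2 and SLC7A5 fell and 11 did not pass, with log2 changes of -0.28 to 0.38. PNP is a purine nucleoside phosphorylase that also splits nicotinamide riboside to nicotinamide. It stood at 49.5, 54.3 and 52.9 TPM in siCtrl and 101, 110 and 103 TPM in siNUDT5, far apart in every pairing, with a log2 change of 0.99 (limma adjusted p = 0.000427). It passed in all 14 alternatives, with adjusted p of at most 0.00837. SLC7A5 and SLC3A2 are the light and heavy chain of the LAT1 transporter, which carries tryptophan among other large neutral amino acids, and SLC7A5 was the most abundant supply gene. SLC7A5 fell from 539 ± 80.3 to 394 ± 17.8 TPM, a log2 change of -0.44 (limma adjusted p = 0.0304). SLC3A2 fell from 234 ± 26.2 to 173 ± 15.4 TPM, a log2 change of -0.43 (limma adjusted p = 0.0293). Both calls were lost without siCtrl 1, without siCtrl 3 and without any 1 siNUDT5 library (adjusted p of 0.0531, 0.112, 0.113, 0.0753 and 0.115 for SLC7A5, in that order, and of 0.0561, 0.120, 0.107, 0.0504 and 0.131 for SLC3A2), and that of SLC7A5 also without a filter (0.0548). IDO1, IDO2 and HAAO of the tryptophan route were listed at 0 in all libraries, as was NMRK2, while TDO2, which opens that route, was at 1.2 ± 0.12 TPM in siCtrl and 1.5 ± 0.47 TPM in siNUDT5.

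Among 20 genes of NAD consumption and breakdown, 17 of them tested, AOX1 and NAXE fell, none rose by limma (2 were higher at an unadjusted p under 0.05, TNKS2 and NOCT) and 15 did not pass, with log2 changes of -0.23 to 0.51. AOX1, an oxidase that turns the methylnicotinamide made by NNMT into pyridones, stood at 59.7, 69.2 and 64.7 TPM in siCtrl and 44.0, 44.0 and 44.4 TPM in siNUDT5. The groups were clearly apart (log2 change -0.53, limma adjusted p = 0.00556), and AOX1 passed in all 14 alternatives, with adjusted p of at most 0.0482. NAXE, the epimerase that repairs hydrated NADH and NADPH, listed as APOA1BP, fell from 135 ± 15.7 TPM to 98.9 ± 6.15 TPM (SD of 3 libraries, log2 change -0.44, limma adjusted p = 0.0240). It did not pass without siCtrl 3 (0.0919) or without siNUDT5 1, 2 or 3 (0.0822, 0.0651 and 0.112). PARP1, the main nuclear consumer of NAD and the most abundant gene of the list, was at 271 ± 6.43 TPM in siCtrl and 276 ± 5.97 TPM in siNUDT5 (log2 change 0.03, 95% interval -0.13 to 0.18). CD38, a NAD glycohydrolase, did not exceed 0.0402 TPM in any library, and SARM1, the NAD hydrolase of axon degeneration, was at 0.128 to 0.483 TPM.

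Among 14 genes of the methyl cycle, which supplies the methyl group that NNMT uses, 11 were tested, MTR rose and the other 10 did not pass. MTR, the methionine synthase, was at 8.76, 12.5 and 11.5 TPM in siCtrl and 18.9, 15.3 and 15.6 TPM in siNUDT5, with no overlap (log2 change 0.57, limma adjusted p = 0.0327). Its adjusted p was 0.0613 without a filter, 0.0517 and 0.0847 without siCtrl 1 and 3, and 0.126, 0.0787 and 0.0938 without siNUDT5 1, 2 and 3. AHCY, which clears the S-adenosylhomocysteine left by methyl transfer and was the most abundant gene of the list, was at 444 ± 28.9 TPM in siCtrl and 400 ± 27.9 TPM in siNUDT5 (SD, n = 3 each, log2 change -0.15, limma adjusted p = 0.256). PNMT and BHMT were listed at 0 in all libraries. Of 11 sirtuin regulators and substrates 8 were tested, and none passed by limma or had groups that did not overlap, against 16.1% and 37.3% of all tested genes. Their log2 changes were -0.10 to 0.18, and 0 had an unadjusted p under 0.05. Of the 3 untested ones PPARGC1A, a transcriptional coactivator that SIRT1 deacetylates, did not overlap, at 0.304 ± 0.00765 TPM in siCtrl and 0.790 ± 0.148 TPM in siNUDT5 (SD, n = 3 each). The most abundant gene of the list, RPS19BP1, a SIRT1-binding protein, was at 204 ± 41.1 TPM in siCtrl and 187 ± 17.3 TPM in siNUDT5.

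An earlier search of these same log2 changes picked the 7-base words AAGACTT and AGACTTA as common in the 3' UTRs of genes that fell and GATTAAC in those of genes that rose, so the words are no independent evidence here. In the longest 3' UTR of GENCODE 29, none of the 3 words was found for NMNAT1, NADSYN1 or NNMT, nor for NAMPT, NMRK1, QPRT, SIRT1 or SIRT6. AAGACTT was found for NADK and NMNAT3, and AGACTTA for NMNAT3 too. Of 11481 tested genes with such a 3' UTR, 18.6% held AAGACTT, 11.9% held AGACTTA and GATTAAC was in 6.35%. The word AAGACTT was also found for SLC3A2 and SLC7A5, which fell, and for MTR, which rose and also held AGACTTA, and no word was found for PNP, AOX1 or NAXE. Only the transcript strand was searched, AAGACTT and AGACTTA overlap by their shared 6 bases, and a match is a description, not a site of action. The sites of the member that did not pass and of the transporter pair that fell are shown on the transcript strand, 5' to 3', with the word in capitals.
NADK: caataaacAAGACTTgtagaaaa
SLC3A2: atccaacaAAGACTTgctgttga
SLC7A5: tgtctcagAAGACTTgatttttc

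The weight of single libraries differed between members. The distance of siCtrl 2 from the mean of siCtrl 1 and siCtrl 3 on the log2(TPM + 1) scale was 0.68 for SIRT1, 0.59 for NAMPT and 0.27 for NMRK1, and it was -0.38 for SIRT6, -0.25 for NADSYN1, -0.17 for QPRT, NADK and NNMT and -0.04 for NMNAT1. Its median size was 0.25 over the 9 members and 0.26 over all tested genes, so the members were displaced like other genes. Of the members highest in siCtrl 2 among controls, NAMPT and SIRT1 peaked in siNUDT5 1 among siNUDT5 libraries, and NMRK1 in siNUDT5 2. Of those lowest in siCtrl 2, SIRT6 and QPRT were lowest in siNUDT5 1 and NADSYN1 in siNUDT5 3. NNMT and NADK were also lowest in siCtrl 2 but highest in siNUDT5 1. The 3 calls of NADSYN1, NNMT and NMNAT1 were present with all libraries and without siCtrl 2, where NAMPT joined them, so that 3 members were higher and 1 lower while 31.1% of all tested genes passed. NADSYN1 and NNMT also passed without siCtrl 1. Without siCtrl 3, siNUDT5 1, siNUDT5 2 or siNUDT5 3 no member passed by limma, where 6.24% to 7.09% of all genes did, although NADSYN1, NNMT and NMNAT1 kept an unadjusted p under 0.05, as they did in all 14 alternatives.

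**Figure D4:**
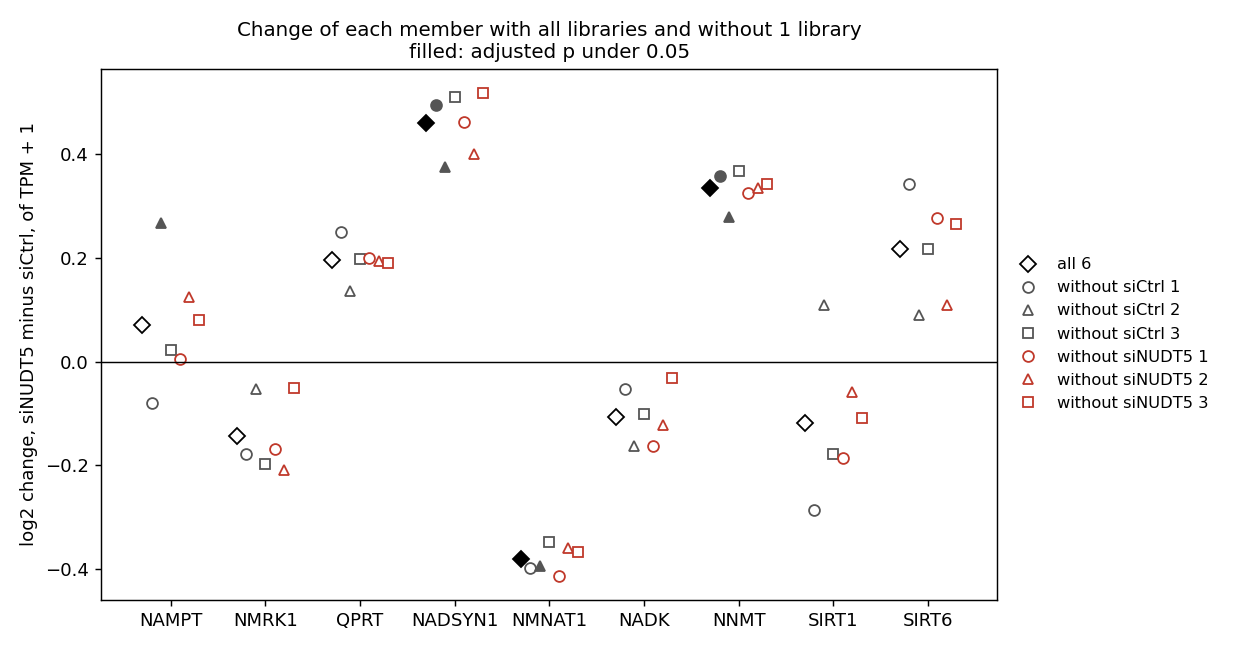
Log2 change of TPM + 1, siNUDT5 minus siCtrl (y axis), of each tested member with all 6 libraries (diamond) and with 1 library left out (grey, a siCtrl library; red, a siNUDT5 library), filled where the adjusted p was under 0.05. NADSYN1, NNMT and NMNAT1 keep their direction throughout, which was fixed in advance because their groups did not overlap. NAMPT ranges from -0.08 to 0.27 and SIRT1 from -0.29 to 0.11.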

How the data were processed

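RNA was extracted from U2OS cells and stranded mRNA libraries were made with a KAPA kit, per the labels' protocols. The authors deposited TPM per gene symbol, with a column for each of 6 libraries. STAR 2.7.3a, DESeq2 1.22.1 and hg19 appear in the submitters' processing notes without roles, and the method behind the TPM values is not given there. Coordinates are left out because the reference is of another build.

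Groups came from the sample titles. Log2(TPM + 1) was fitted for genes averaging 1 TPM or more with limma 3.58.1 (R 4.3.3, eBayes with a trend, two-sided, Benjamini-Hochberg adjustment over 12236 genes), checked on simulated data. In the simulated data of 12236 genes, 100 were given a log2 change of 0.5 in size, and 28% of these passed. A change of 1 was given to 100, and 73% of these passed. Whether these rates hold for the libraries themselves, where 16.1% of all tested genes passed, was not tested. A gene that did not pass is not shown to be unchanged. Log2 changes on this scale understate those of low genes. Exact permutation tests used scipy 1.17.1. TPM keeps no total depth; relative depth came from the commonest ratio of values under 0.3 TPM, and whole reads were the smallest whole numbers matching all 6 libraries within 0.02. No pair of libraries held an identical value above 0.

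Members and gene lists were chosen with earlier results of these data known. Named are all members, their isozymes, NUDT5, and of the other lists the genes past the threshold, the most abundant tested gene and those listed at 0 throughout; TDO2, SARM1, CD38, TNKS2, NOCT and PPARGC1A were picked after their values were seen. The alternatives changed the pseudocount to 0.1 or 5, dropped the filter or raised it to 5 TPM, scaled by median ratios or quantiles, dropped the trend, added the replicate block or left out each library.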

Additional observations from a re-analysis of the deposited data

How the results depend on the processing

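Same-numbered libraries deviated from their group means with correlations of -0.43, -0.54 and -0.04 across genes. Those of unlike numbers ranged from -0.27 (siCtrl 3 with siNUDT5 1) to 0.49 (siCtrl 1 with siNUDT5 2), with 0.46 for siCtrl 2 with siNUDT5 1. Same-numbered libraries thus showed no shared deviation, and how the libraries were prepared is not known from these correlations. The correlations depend on each other, since deviations were taken from the mean of each group, and a weaker pairing could be hidden. With the replicate block 739 genes passed, 6.04% of those tested, 486 higher and 253 lower. No member passed in either direction (0 and 0 by limma, against 2 and 1 at an unadjusted p under 0.05), and 1 other pathway gene rose and 1 fell. Leaving out 1 library moved the count of genes between 764 and 3804 (520 to 2672 higher, 213 to 1132 lower), of members between 0 and 3 higher and 0 and 1 lower, and of other pathway genes between 1 and 9 higher and 1 and 8 lower; fewer libraries also leave fewer degrees of freedom. Members higher numbered 1 without a filter, 0 with median-ratio scaling (2 at an unadjusted p under 0.05) and 1 with quantile normalization. Members lower numbered 0 without a filter (1 unadjusted). Of all tested genes 9.81% passed without a filter, 15.8% with median-ratio scaling and 16.2% with quantile normalization, against 16.1% with the main settings. Quantile normalization gave 965 lower genes and 7 lower pathway genes, and 4 pathway genes were higher with log2(TPM + 5) and without a trend. The log2 ratio of NMNAT1 to NMNAT3 differed by 0.29 in place of -0.16 with log2(TPM + 0.1), where the few reads of NMNAT3 weigh more. With 1 library left out the log2 change of NAMPT ranged from -0.080 to 0.27, turning without siCtrl 1, and that of SIRT1 from -0.29 to 0.11, turning without siCtrl 2; no other tested member turned in any alternative. The shares of NMNAT1 and NMNAT2, an alternative chosen after seeing the data, differed by -5.35 to -4.53 and by 5.68 to 7.30 percentage points with 1 library left out. For the other results the cause of a change with a setting was not tested.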
